A study of Mus musculus with 5 samples.

Results

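The membrane mucins of the uterine surface epithelium were taken as the rows of the count table whose gene name was Muc1, Muc4, Muc15, Muc16 or Muc20, which gave 5 genes of 28666. RNA of whole uteri of pseudopregnant ICR females, aged 6 to 8 weeks, was sequenced 3.5 days after the females had been caged, as the series description counts it, and the study's methods give a slightly earlier time. Every female had been caged with a ligated male, so that the uterus had met seminal plasma (SP) without sperm, and no library comes from a female that met no male. In the aged-SP group the male was old (2 libraries, replicates 1 and 4) and in the young-SP group it was young (3 libraries, replicates 1, 2 and 4). The males were of the C57BL/6 strain, and the male behind each library is not given in the labels. The study set aside a further young-SP library as an outlier, and that library was not analysed here.

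Membrane mucins are large glycoproteins anchored in the apical membrane of epithelial cells, whose outer part is rich in serine and threonine and carries dense O-linked sugar chains. Together they form much of the glycocalyx, a layer that hinders the contact of other cells and of microbes with the cell surface, and their outer part can be cut off by proteases called sheddases. In the mouse uterus Muc1 is known to be raised by estrogen and to be low around implantation, and loss of this surface layer is part of the textbook account of uterine receptivity.

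The question of the comparison was whether the levels of these genes in the uterus differ with the age of the male. Muc1, Muc4 and Muc20 were high in both aged-SP libraries and in young-SP replicate 1, and low in young-SP replicates 2 and 4. Muc16 ran the other way and was lower in each aged-SP library than in any library of the young-SP group, with a log2 fold change of aged-SP over young-SP of -1.66 (SE 0.47). Muc15 was at or near 0 in all 5 libraries. None of the 4 tested members passed the call across all genes, which asked for an adjusted p under 0.05 and a log2 fold change beyond 1 in either direction (edgeR quasi-likelihood test with Benjamini-Hochberg adjustment). By that rule 25 of 17013 tested genes were called, which is 0.147% of them.

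Levels are given as CPM, the count in relation to the library total after scaling by the trimmed mean of M values (TMM), and as FPKM, which also divides by the length of the gene, where genes are compared with each other. The 5 libraries held 15071914 to 16728601 counts, and their TMM factors lay between 0.99 and 1.02. The median log2 fold change over all tested genes was 0.01. Young-SP replicate 1 stood apart from the other two young-SP libraries at these genes. Over all genes, the chi-square statistic per degree of freedom was 17.0 between young-SP replicates 2 and 4, against 44.0 and 36.8 between young-SP replicate 1 and each of them, and 50.4 and 39.4 between young-SP replicate 1 and aged-SP replicates 1 and 4. Over all genes that library was thus nearest to young-SP replicate 4 and farthest from aged-SP replicate 1. It was nearer to aged-SP replicate 4 than to young-SP replicate 2. At Muc1, Muc4 and Muc20 it was nearer to both aged-SP libraries than to the rest of its own group. Whether it carries the right label cannot be checked from the values used here. The size of each difference between the groups at these 3 genes depended on that library, and each was larger without it. The labels give separate samples and no culture, day or batch, so that p-values measure the spread between these samples only. RNA of a whole uterus was measured, and fewer cells of a type and less RNA per cell cannot be told apart in it.

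To show the sequence next to genes that moved together and apart, the 250 bases before the annotated start are printed for the 4 members with an entry in the RefSeq promoter table (GRCm38.p6). They are written 5′ to 3′ on the strand of the gene, and capitals mark each match to the motifs searched. These lie at chr3:89228806-89229055 (plus strand) for Muc1, chr16:32735636-32735885 (plus strand) for Muc4, chr16:32797436-32797685 (minus strand) for Muc20 and chr9:18674604-18674853 (minus strand) for Muc16. Muc15 was the member without an entry.
Muc1: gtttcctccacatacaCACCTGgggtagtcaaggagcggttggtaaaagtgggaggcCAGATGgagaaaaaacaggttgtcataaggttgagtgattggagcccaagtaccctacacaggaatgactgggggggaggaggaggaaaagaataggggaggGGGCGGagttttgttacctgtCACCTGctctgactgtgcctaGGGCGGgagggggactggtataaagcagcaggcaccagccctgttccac
Muc4: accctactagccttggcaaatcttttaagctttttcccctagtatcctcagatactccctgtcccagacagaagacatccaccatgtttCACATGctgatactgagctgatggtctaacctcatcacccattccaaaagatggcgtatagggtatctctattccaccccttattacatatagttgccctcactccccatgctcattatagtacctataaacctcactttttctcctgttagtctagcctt
Muc20: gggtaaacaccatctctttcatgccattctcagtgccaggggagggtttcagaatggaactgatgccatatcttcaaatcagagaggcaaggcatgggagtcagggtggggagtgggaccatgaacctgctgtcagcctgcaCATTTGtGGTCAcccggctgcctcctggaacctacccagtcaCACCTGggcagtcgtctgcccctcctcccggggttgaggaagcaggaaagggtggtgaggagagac
Muc16: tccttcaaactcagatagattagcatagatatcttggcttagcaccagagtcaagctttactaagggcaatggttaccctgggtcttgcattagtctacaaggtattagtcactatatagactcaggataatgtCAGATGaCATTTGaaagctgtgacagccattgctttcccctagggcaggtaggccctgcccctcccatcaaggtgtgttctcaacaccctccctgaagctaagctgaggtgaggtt

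Motifs were searched on both strands. The estrogen response element was searched as the palindrome GGTCANNNTGACC, held by 0.064% of all 32817 promoters of this length, and as its single arm GGTCA, held by 35.2%. The single arm matched once, in Muc20, with its first base at -101, and the palindrome matched in none of the 4. The STAT site TTCNNNGAA, held by 7.01% of all promoters, matched in none of the 4. The GC box GGGCGG, held by 32.7%, matched 2 times in Muc1, at -91 and -49, and in no other member. The E-box CANNTG, held by 66.2%, matched in all 4 members, 3 times in Muc1, 1 time in Muc4, 2 times in Muc20 and 2 times in Muc16. No motif match overlapped another in these 4 windows. The windows held 3 CpG pairs in Muc1, 1 in Muc4, 3 in Muc20 and 0 in Muc16, beside a median of 6 and quartiles of 2 and 16 over all promoters. Their GC content was 54.8%, 43.6%, 57.2% and 46.4% in the same order, beside a median of 52.4%. A match is a description of the letters and not a site in use.

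Muc1, the widely expressed membrane mucin of simple epithelia, was the most abundant member per length in every library. Its gene lies on chromosome 3 at 89229057 to 89233381 on the plus strand (positions as in GENCODE M21 on GRCm38), in 7 exon blocks with 2346 exonic bases. The table assigns it an SEA domain, a part in which membrane mucins are commonly cleaved, and places it in the apical plasma membrane. Muc1 stood at 143 and 84.3 CPM in aged-SP replicates 1 and 4, and at 138, 16.0 and 30.2 CPM in young-SP replicates 1, 2 and 4. Young-SP replicate 1 lay between the aged-SP libraries while the other two young-SP libraries lay below both, so that the groups overlapped. The means were 114 ± 41.7 CPM (SD, n = 2) in aged-SP and 61.4 ± 66.6 CPM (SD, n = 3) in young-SP. The log2 fold change of 0.89 (SE 0.89, 95% interval -1.33 to 3.12) was within the spread between libraries (edgeR quasi-likelihood, adjusted p = 0.625).

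Muc4, a large mucin known as a membrane partner of the receptor ErbB2, varied most among the members. Its gene lies on chromosome 16 at 32735886 to 32782391 on the plus strand, in 27 exon blocks with 11757 exonic bases, and the table assigns it an AMOP domain. Muc4 stood at 215 and 101 CPM in aged-SP replicates 1 and 4, and at 255, 2.66 and 5.74 CPM in young-SP replicates 1, 2 and 4. The highest and the lowest library were both of the young-SP group and differed 95.7-fold, against 2.13-fold between the aged-SP libraries. Over all genes, the median fold between the highest and the lowest young-SP library was 1.28, and in 3.06% of 16907 genes it was at least 5, as it was at Muc1, Muc4 and Muc20. The means were 158 ± 80.7 CPM (SD, n = 2) and 87.7 ± 145 CPM (SD, n = 3). The log2 fold change was 0.85 (SE 1.75, 95% interval -3.51 to 5.21, edgeR quasi-likelihood adjusted p = 0.830), an interval that holds large differences in both directions.

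Muc20, a small mucin known as a partner of the receptor Met, was high and low in the same libraries as Muc1 and Muc4, at a lower level. Its gene lies on chromosome 16 at 32777419 to 32797435 on the minus strand, in 5 exon blocks with 4027 exonic bases, tail to tail with Muc4. Muc20 stood at 17.3 and 8.95 CPM in aged-SP replicates 1 and 4, and at 14.7, 1.06 and 0.668 CPM in young-SP replicates 1, 2 and 4. These values rest on 287, 140, 235, 18 and 10 counts, so that the 2 lowest libraries carry a large counting error. The groups overlapped through young-SP replicate 1, and the means were 13.2 ± 5.94 CPM (SD, n = 2) in aged-SP and 5.48 ± 7.99 CPM (SD, n = 3) in young-SP. The log2 fold change was 1.26 (SE 1.25, 95% interval -1.86 to 4.38, edgeR quasi-likelihood adjusted p = 0.621).

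Muc16, the very large mucin whose shed part is the antigen CA125 and which binds mesothelin, was the member whose groups did not overlap. Its gene lies on chromosome 9 at 18495455 to 18674530 on the minus strand, in 86 exon blocks with 26350 exonic bases, and the table assigns it an SEA domain. Muc16 stood at 3.51 and 3.39 CPM in aged-SP replicates 1 and 4, and at 5.82, 10.4 and 16.6 CPM in young-SP replicates 1, 2 and 4. Both aged-SP libraries lay below all 3 young-SP libraries, of which replicate 1 was the lowest. Of all tested genes 38.8% had groups that did not overlap, and 19.3% had them with aged-SP lower. The means were 3.45 ± 0.0824 CPM (SD, n = 2) and 10.9 ± 5.39 CPM (SD, n = 3), and the log2 fold change was -1.66 (SE 0.47, 95% interval -2.83 to -0.49). The unadjusted p was 0.0140 and the adjusted p was 0.163 in the edgeR quasi-likelihood fit across all genes, where 19.0% of genes had an unadjusted p under 0.05. The DESeq2 Wald test gave -1.67 with an adjusted p of 0.0125, a call, in a test that called 3.60% of 17536 genes. The aged-SP values were nearly equal, and this rests on 58 and 53 counts, so that the small SD of 2 libraries is itself an uncertain estimate.

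Muc15, a membrane mucin known from the milk fat globule, was at the limit of detection. Its gene lies on chromosome 2 at 110721340 to 110739527 on the plus strand, in 5 exon blocks with 3569 exonic bases. It was counted 1 and 0 times in aged-SP replicates 1 and 4, and 3, 0 and 0 counts in young-SP replicates 1, 2 and 4. Every library was at or under 3 counts, the most that a count of 0 allows, which corresponds to 0.177 to 0.200 CPM by library for counting error alone. Muc15 did not enter the test and no fold is given, and an expression below this level was not detectable at this depth.

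**Figure D1:**
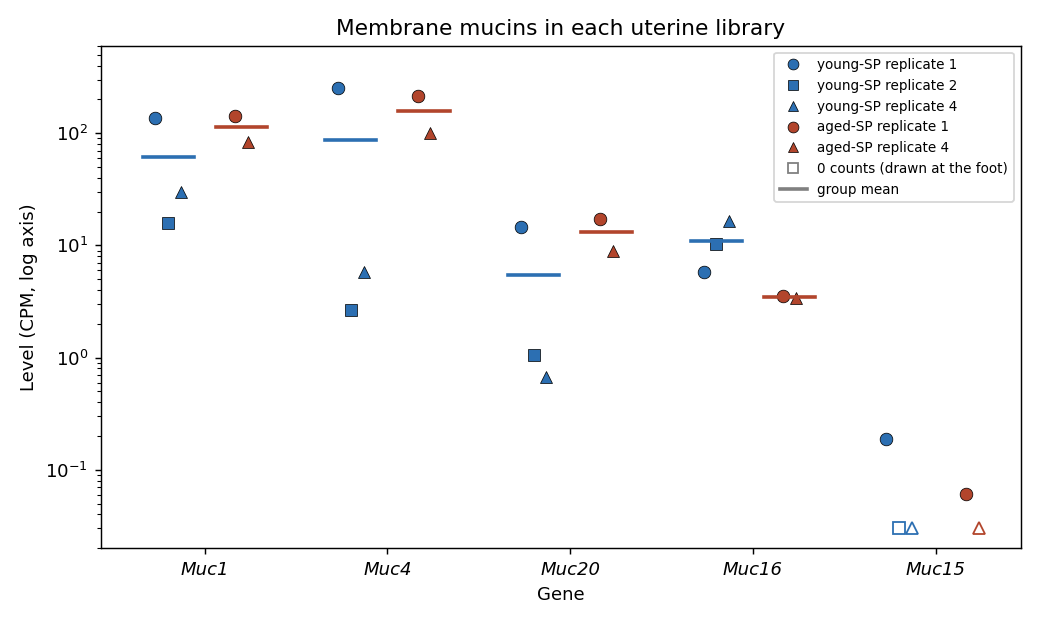
Levels of the 5 membrane mucins in each library, in CPM on a log axis, with symbols by replicate and colors by group, bars at the group means and open symbols at the foot for 0 counts. Muc1, Muc4 and Muc20 show young-SP replicate 1 near the aged-SP libraries and young-SP replicates 2 and 4 below, while Muc16 shows both aged-SP libraries lowest, at 3.39 and 3.51 CPM.

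Young-SP replicate 1 decided the size of the differences at Muc1, Muc4 and Muc20. Without it, the young-SP group held 2 libraries, and the log2 fold changes were 2.29 (SE 0.40) for Muc1, 5.23 (SE 0.56) for Muc4, 3.89 (SE 0.47) for Muc20 and -1.98 (SE 0.30) for Muc16. All 4 then passed the call, with adjusted p of 0.0469, 0.0203, 0.0243 and 0.0351 in the edgeR quasi-likelihood fit, beside 3.45% of 16745 genes called and 22.7% at an unadjusted p under 0.05. No label gives a reason to leave this library out, so that these values show what 1 library changes and are not a result of their own. When each other library was left out in turn (replicates 1 and 4 of aged-SP, then 2 and 4 of young-SP), none of the 4 was called, beside 0.00568%, 0.278%, 0.0180% and 0.0119% of the genes tested. The unadjusted p of Muc16 was then under 0.05 without either of those young-SP libraries and not without an aged-SP library, and in these fits 12.0%, 14.8%, 12.6% and 14.8% of genes had a p that small. The limma-voom fit, which averages log values and so gives less weight to 1 high library, gave log2 fold changes of 1.45, 3.23, 2.48 and -1.52 for Muc1, Muc4, Muc20 and Muc16, with adjusted p of 0.410, 0.345, 0.296 and 0.233, and it called 0.159% of genes. With the replicate number as a block edgeR called 0.0118% of genes and none of the members.

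**Figure D2:**
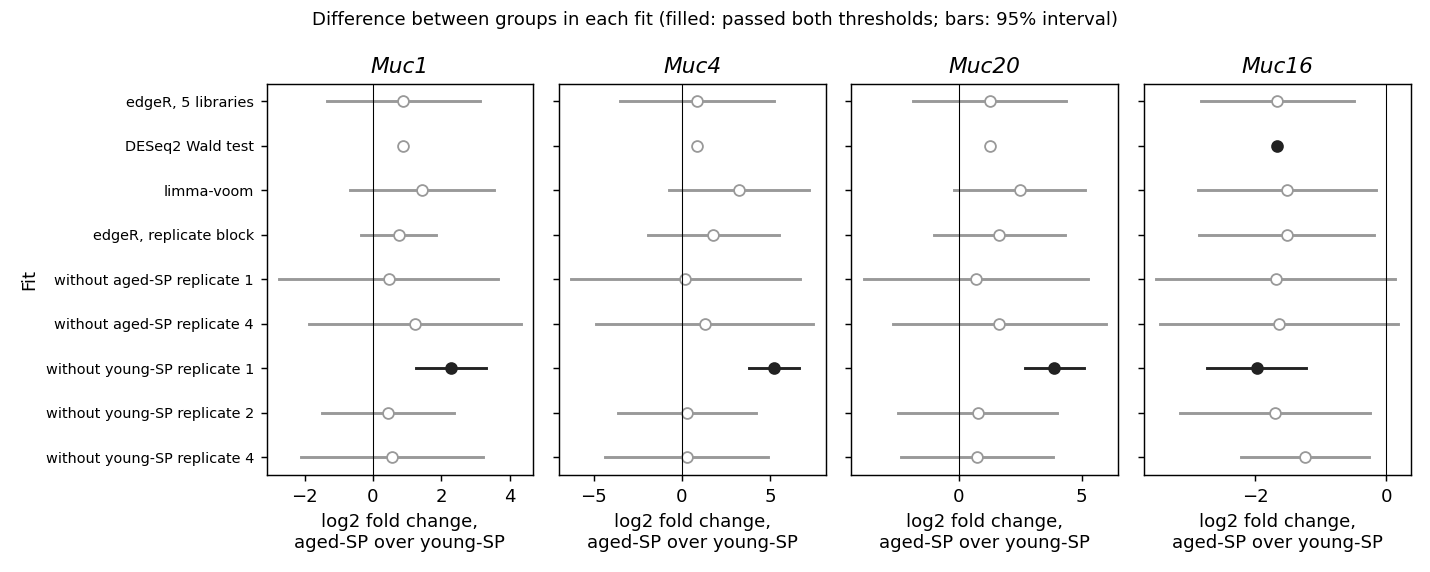
Log2 fold changes of aged-SP over young-SP for the 4 tested members in each fit, with 95% intervals, filled where both thresholds were passed. The sign was the same in all fits drawn, and Muc1, Muc4 and Muc20 passed only without young-SP replicate 1, where Muc4 reached 5.23.

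Per length, the make-up of the mucin layer at the RNA level differed between libraries. In both aged-SP libraries and in young-SP replicate 1 the order by FPKM was Muc1, Muc4, Muc20, Muc16 and Muc15. In young-SP replicates 2 and 4 Muc16 came directly after Muc1, and Muc4 after Muc16, in young-SP replicate 2 also after Muc20. TMM-scaled values per length give the same order by construction, since within a library they differ from FPKM only by a constant factor.

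Muc1 stood at 60.4 and 35.8 FPKM in the aged-SP libraries and at 58.3, 6.97 and 12.8 FPKM in young-SP replicates 1, 2 and 4. Muc4 stood at 18.1 and 8.54 FPKM and at 21.5, 0.231 and 0.485 FPKM in the same order. Muc16 stood at 0.132 and 0.128 FPKM and at 0.219, 0.403 and 0.624 FPKM. Muc1 thus led in every library, whereas the places of Muc4 and Muc16 were exchanged in young-SP replicates 2 and 4.

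The ratio of Muc4 to Muc16 was 137 and 66.5 in the aged-SP libraries and 98.1, 0.573 and 0.777 in young-SP replicates 1, 2 and 4, so that the members with the most unlike patterns crossed. The ratio of Muc1 to Muc4 was 3.34 and 4.20 in the aged-SP libraries and 2.71, 30.2 and 26.4 in the young-SP libraries. Muc20 stood between 0.165 and 4.26 FPKM, and in young-SP replicates 2 and 4 Muc4, Muc16 and Muc20 all lay under 1 FPKM. Among all genes above 0 ranked by FPKM, Muc1 took the places 768 and 1380 in the aged-SP libraries and 841, 7001 and 4175 in the young-SP libraries.

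The likeness of patterns was measured as the root mean square difference of log2 CPM after centring each gene over the 5 libraries, among 13433 genes with at least 50 counts on average. Muc4 and Muc20 differed by 1.0, Muc1 and Muc20 by 0.82 and Muc1 and Muc4 by 1.5, while Muc16 differed by 2.01 from Muc1, 2.71 from Muc20 and 3.49 from Muc4. By this measure Muc4 was not near Muc1. It took place 12339 of 13433 from Muc1, whose own difference from its mean was 1.25. Muc20 took place 379 from Muc1. From Muc4, Muc20 and Muc1 took the places 17 and 67, and from Muc20, Muc1 and Muc4 took the places 45 and 100. Muc16 took the places 13273, 13325 and 13327 from Muc1, Muc4 and Muc20. The 3 genes most like Muc1 were Plet1 (0.16), Ifit1 (0.16), an interferon-induced gene, and Steap2 (0.20), a metalloreductase. Those most like Muc4 were Steap1 (0.26), Mal2 (0.53), a protein of apical transport, and Slc26a9 (0.63), an anion channel. Among those most like Muc20 were Ifit1bl1 (0.37) and Pglyrp1 (0.45), a peptidoglycan recognition protein. Those most like Muc16 were Gm42031 (0.08), a non-coding RNA, Sorl1 (0.12), a sorting receptor, and Sh3tc2 (0.15). With 5 libraries such a likeness is a description.

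Muc4 and Muc20 are neighbours on opposite strands and share 627 exonic bases, which make 5.33% of the exonic bases of Muc4 and 15.6% of those of Muc20. The library kit does not mark strand, and the counting mode for reads that fall in both genes is not given in the sources used here, so that reads of the shared bases cannot be told apart. If the counts of Muc4 were spread evenly over its exons, 189 and 83.9 counts of aged-SP replicates 1 and 4 and 217, 2.40 and 4.59 counts in young-SP replicates 1, 2 and 4 would lie in the shared bases. What would remain of Muc20 is 97.5 and 56.1 counts in aged-SP and 17.9, 15.6 and 5.41 counts in young-SP replicates 1, 2 and 4. This takes an equal number of reads of Muc4 to have been counted for Muc20, and less would be taken off if fewer were. On that reckoning young-SP replicate 1 would lie near the other young-SP libraries and below both aged-SP libraries, in contrast to the deposited counts. The share of Muc4 in the counts of Muc20 was not tested. Of the further neighbours of Muc4 within 100000 bases 3 were tested, and the fold between their highest and lowest library was 1.26 at Tnk2, 1.10 at Rubcn and 1.02 at Fyttd1. Another, Tnk2os, was too low to be tested (0.128 to 0.473 CPM, a fold of 3.70). Around Muc1, that fold was 1.20 to 3.73 at the 14 tested neighbours, highest at Efna3 and 1.58 at Trim46, the nearest, which lies 796 bases away, against 8.94 at Muc1 itself. Of 3 neighbours of Muc1 too low to be tested, Pklr stood at 0.0591 to 0.605 CPM, with a fold of 10.2. Muc1 and Muc16 shared 0 stretches of 50 exonic bases with other genes, and Muc15 shared some with Ano3 on the opposite strand.

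**Figure D3:**
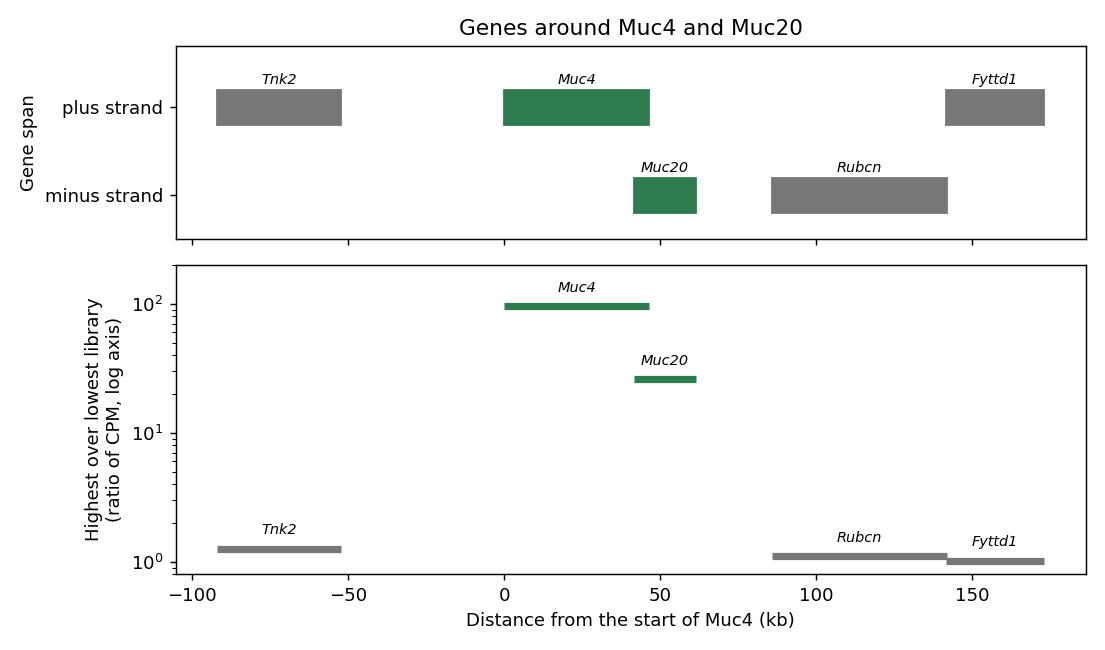
Genes around Muc4 by distance from the Muc4 start in kilobases, with their strand above and the fold between the highest and the lowest library below on a log axis. Tested genes are drawn, and Muc4 (95.7) and Muc20 (26.0) stand above Tnk2, Rubcn and Fyttd1, which reach at most 1.26.

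Other genes of the mucin system were read from lists, and in each of them 0 genes were called by the edgeR quasi-likelihood test. Of 19 other mucins and mucin-like genes 12 were in the table and 7 were tested, of which 1 was higher and 1 lower in aged-SP at an unadjusted p under 0.05, and the median log2 fold change was 0.15. The smallest p was that of Muc5b, a secreted gel-forming mucin, at 1.69 and 4.60 CPM in the aged-SP libraries and 0.375, 0.0591 and 0 CPM in young-SP replicates 1, 2 and 4. Its log2 fold change of 4.36 (SE 0.97) had an adjusted p of 0.115 and rests on 6, 1 and 0 counts in the young-SP libraries. The most abundant per length was Cd164, a sialomucin of many cell types, with 78.6 FPKM on average over 5 libraries and a log2 fold change of 0.15 (SE 0.11).

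The enzymes that build O-linked sugars were measured for all 42 genes listed and tested for 34, of which 2 were higher and 5 lower in aged-SP at an unadjusted p under 0.05, with a median log2 fold change of -0.04. At the same threshold 9.62% of all tested genes were higher and 9.36% lower. Galnt15, one of the transferases that add the first sugar, stood at 173 and 161 CPM in aged-SP and at 41.3, 50.5 and 66.1 CPM in young-SP replicates 1, 2 and 4. Its groups did not overlap, and young-SP replicate 1 was here the lowest library. Its log2 fold change was 1.67 (SE 0.20, edgeR quasi-likelihood adjusted p = 0.0653), just outside the threshold, and the DESeq2 Wald test called it (adjusted p = 6.94e-10). B4galt1, the most abundant enzyme per length, was at 35.6 FPKM on average and had a log2 fold change of -0.23 (SE 0.10, adjusted p = 0.278).

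Of 9 sheddases all were tested, 2 were higher and 0 lower in aged-SP at an unadjusted p under 0.05, and the median log2 fold change was 0.24. Bace2, an aspartyl protease, stood at 58.3 and 40.1 CPM in aged-SP and at 25.9, 23.6 and 26.2 CPM in young-SP, with a log2 fold change of 0.96 (SE 0.18, adjusted p = 0.0886), the smallest p of the list. Mmp7, the matrix protease matrilysin and the most abundant of them per length on average, stood at 486 FPKM in aged-SP replicate 1, 30.5 in aged-SP replicate 4, and 47.6, 0 and 0.497 FPKM in young-SP replicates 1, 2 and 4. Most of its level in the aged-SP group was thus that of 1 library (adjusted p = 0.374). Adam10 and Adam17, sheddases known to cut membrane proteins of many kinds, had log2 fold changes of -0.02 and -0.13.

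Of 21 binding partners and receptors 4 were higher and 4 lower in aged-SP at an unadjusted p under 0.05, and the median log2 fold change was 0.04. Egfr, the epidermal growth factor receptor, had the smallest p and a log2 fold change of -0.80 (SE 0.17, adjusted p = 0.114). Erbb4, a receptor of the same family, was counted 250 and 27 times in aged-SP replicates 1 and 4 and 0 times in each young-SP library, so that its aged-SP mean was at least 44.7-fold higher than the floor of 3 counts per library, and most of that mean came from aged-SP replicate 1. Met, the receptor that Muc20 is known to bind, stood at 135 and 75.7 CPM in aged-SP and at 65.5, 39.8 and 36.6 CPM in young-SP, with a log2 fold change of 1.15 (SE 0.34, adjusted p = 0.177). Msln, the partner of Muc16, stood at 24.0 and 17.4 CPM in aged-SP and at 10.2, 13.2 and 27.2 CPM in young-SP, and its groups overlapped. Lgals1, a galectin and the most abundant partner per length, had a log2 fold change of -0.70 (SE 0.17, adjusted p = 0.130).

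The label of an epithelial surface was read against markers of the cells in a whole uterus. General epithelial markers were present in all libraries, and their summed level was 2971 and 2329 CPM in aged-SP and 2828, 1437 and 1695 CPM in young-SP replicates 1, 2 and 4. The same 2 libraries that were low in Muc1, Muc4 and Muc20 were the lowest here, with a smaller spread. Of 20 markers 15 were higher and 5 lower in aged-SP by sign alone, beside 8663 and 8350 of all tested genes, and their median log2 fold change was 0.36. The smallest adjusted p (edgeR quasi-likelihood) was 0.0552, at Cldn3, a tight junction protein with a log2 fold change of -1.03. Relative to the geometric mean of Epcam, Cdh1, Krt8 and Krt18, the mean difference in log2 CPM between the groups was 1.06 at Muc1, 2.82 at Muc4, 2.01 at Muc20 and -1.88 at Muc16, beside 1.43, 3.19, 2.39 and -1.51 without that scaling. The direction of all 4 members was the same on both scales, and the scaled difference was larger in size at Muc16 and smaller at the other 3.

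Several genes that estrogen is known to raise in the uterine epithelium, though not all, were high and low in the same libraries as Muc1, Muc4 and Muc20. Of 11 tested genes 7 stood higher in both aged-SP libraries and young-SP replicate 1 than in the other two young-SP libraries, an arrangement noticed in the data and held by 16.3% of all tested genes. It was not particular to this list. General epithelial markers held it in 14 of 20 tested genes, gland markers in 6 of 11 and other mucins in 4 of 7. Luminal markers held it in 3 of 12 and progesterone targets in 1 of 14. The summed level of the estrogen-responsive genes was 9688 and 9182 CPM in aged-SP and 8726, 567 and 1240 CPM in young-SP replicates 1, 2 and 4. Ltf, the secreted iron-binding protein lactoferrin and the most abundant of them per length, stood at 2708 and 4330 CPM in aged-SP and at 3632, 28.3 and 394 CPM in young-SP. Others of the list differed from that, such as Clca3a1, at 17.8 and 14.1 CPM in aged-SP and 19.9, 14.8 and 12.0 CPM in young-SP, and Mki67, a gene of dividing cells, at 77.0 and 70.4 CPM in aged-SP and 195, 135 and 94.5 CPM in young-SP. At an unadjusted p under 0.05, 2 of the 11 were higher and 1 was lower in aged-SP, and the smallest adjusted p was 0.196, at C3. Without young-SP replicate 1, edgeR called 5 of the 11, beside 3.45% of all genes. Esr1, the estrogen receptor gene, stood at 419 and 395 CPM in aged-SP and at 310, 343 and 353 CPM in young-SP. The part of estrogen in the levels of the mucins was not tested.

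Of the genes that progesterone is known to raise, 8 of 14 tested had aged-SP below young-SP without overlap, as Muc16 had. That arrangement was held by 19.3% of all tested genes. The summed level of the list was 1151 and 983 CPM in aged-SP and 1362, 1612 and 1937 CPM in young-SP replicates 1, 2 and 4. At an unadjusted p under 0.05, 1 was higher and 8 were lower in aged-SP, and the median log2 fold change was -0.70. At that threshold 9.62% of all tested genes were higher and 9.36% lower. Lrp2, a large endocytic receptor with the smallest p of the list, stood at 24.8 and 17.3 CPM in aged-SP and at 176, 362 and 554 CPM in young-SP, with a log2 fold change of -4.11 (SE 0.57, adjusted p = 0.0734). The higher one was Cyp26a1, an enzyme that breaks down retinoic acid, at 104 and 2.30 CPM in aged-SP and 2.88, 2.36 and 3.40 CPM in young-SP, so that 1 library carried its difference. Luminal epithelial markers, a list that shares members with the last one, summed to 519.8 and 471 CPM in aged-SP and to 1023, 759 and 950.4 CPM in young-SP, and of 12 genes 1 was higher and 7 were lower at an unadjusted p under 0.05. The most abundant of them per length was Calb1, a calcium-binding protein, with a log2 fold change of -2.60 (SE 0.29, adjusted p = 0.0598). Gland markers summed to 4150 and 3030 CPM in aged-SP and to 624, 96.5 and 77.0 CPM in young-SP, and the most abundant per length was the secreted protease Prss29 (log2 fold change 4.11, SE 1.87, adjusted p = 0.312). At an unadjusted p under 0.05, 1 gland marker was higher and 2 were lower in aged-SP, and the smallest p was that of Cxcl15, a chemokine of the glands, with a log2 fold change of -2.35 (SE 0.53, adjusted p = 0.116). The sum and that marker thus ran in opposite directions. DESeq2 called 6 luminal markers and 5 progesterone targets, of which 4 are the same genes, so that these are 7 genes, beside 3.60% of all genes, and 2 gland markers, Cxcl15 and Ttr, both lower in aged-SP. Without young-SP replicate 1, edgeR called 6 luminal markers, 4 progesterone targets and 3 gland markers, beside 3.45% of all genes.

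**Figure D4:**
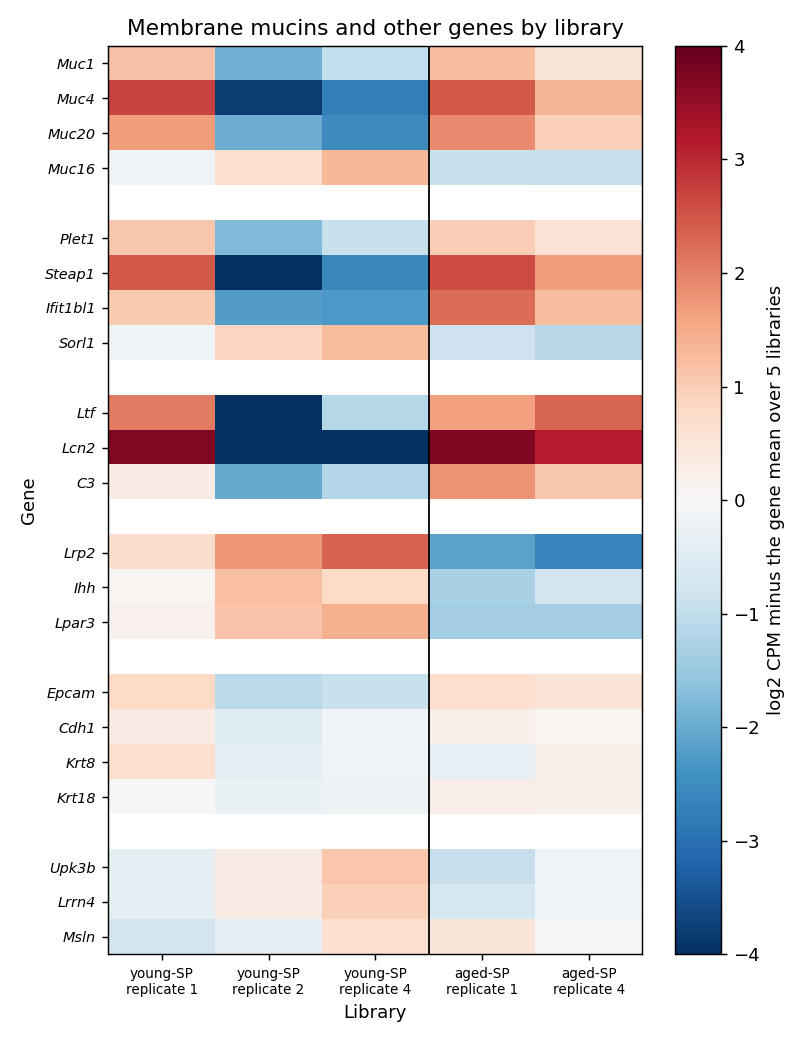
Log2 CPM of the 4 tested members and of other genes, each minus its mean over the 5 libraries (color, limited to 4 in either direction), with libraries as columns. Below the members stand a near neighbour of each in pattern and genes picked after their values were seen, and Muc1, Muc4 and Muc20 are low in young-SP replicates 2 and 4, where Muc16 is high.

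Cells outside the uterine epithelium were read in the same way, since Muc16 is also known from the mesothelium, the outer lining of the organ. Mesothelial markers summed to 305 and 351 CPM in aged-SP and to 410.2, 326 and 464 CPM in young-SP. The largest terms of that sum were Wt1 and Krt19, at 124 and 114 CPM in aged-SP replicate 1, and Krt19 was also on the general epithelial list. Of the 8 markers, 0 were higher and 1 was lower in aged-SP at an unadjusted p under 0.05, and the median log2 fold change was -0.49. The lower one was Upk1b, a uroplakin, at 2.18 and 3.07 CPM in aged-SP and 6.13, 6.68 and 8.08 CPM in young-SP, without overlap and in the direction of Muc16, with a log2 fold change of -1.41 (SE 0.27, edgeR adjusted p = 0.0915), and DESeq2 called it (adjusted p = 0.00141). The groups overlapped at the other 7 markers, among them Upk3b, at 16.6 and 28.3 CPM in aged-SP and 24.6, 39.0 and 67.2 CPM in young-SP. Stromal markers summed to 10840 and 12171 CPM in aged-SP and to 15232, 19380 and 19501 CPM in young-SP, in which aged-SP was lower as at Muc16. The largest terms were Col1a1 and Col3a1, at 2412 and 4336 CPM in aged-SP replicate 1. At an unadjusted p under 0.05, 0 of 10 were higher and 5 lower, beside 9.62% and 9.36% of all tested genes. The groups overlapped at Hoxa10, Vim, Dcn and Lum. Markers of the vagina and cervix summed to 34.4 to 46.6 CPM, and the defining keratins Krt5, Krt14 and Krt6a were at 0 to 0.334 CPM in every library. Pax2 made the largest term, at 22.3 to 27.9 CPM. Among 5 tested, 0 were higher and 1 lower in aged-SP at an unadjusted p under 0.05. That gene, the keratin Krt10, stood at 2.96 and 4.03 CPM in aged-SP and 9.26, 5.56 and 15.0 CPM in young-SP. It ran without overlap in the direction of Muc16 (edgeR adjusted p = 0.186), and DESeq2 called it (adjusted p = 0.0304). Oviduct and ciliated cell markers summed to 203 and 218 CPM in aged-SP and to 210.2, 212 and 406 CPM in young-SP. The part of these cells in the levels of the mucins was not tested.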

How the data were processed

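RNA of whole uteri was sequenced in 5 libraries, which were grouped by the sample labels. Per the labels and the study's methods, reads were filtered, aligned with HISAT2 (2.1.0) and counted per gene with HTSeq (0.6.0). The authors deposited these counts without normalization, and they were used for all tests. The genome build is not given in the sources used here, and the gene positions in the table were the same as in GENCODE M21 (GRCm38) for the members. The FPKM values the authors deposited are these counts per gene length and total count, checked on 117552 values, with a largest relative difference of 1.93e-07. The deposited table also holds columns of the authors' own comparison, a mean signal, a ratio or fold, its log2 value and p-value columns, and none of these was used. In all, 0 columns of values per sample were left unused.

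Genes were kept by the default count filter of edgeR (4.0.16, R 4.3.3), which left 17013, scaled by TMM and tested for aged-SP over young-SP by the quasi-likelihood F-test with Benjamini-Hochberg adjustment over all of them. The SE is the log2 fold change over the root of F, and the interval covers 95%. A call needed an adjusted p below 0.05 together with a log2 fold change beyond 1 in either direction. The biological coefficient of variation was 25.1%. DESeq2 (1.42.0), limma (3.58.1) voom, other scalings and filters, the replicate number as a block and each library left out were alternatives. The test steps were checked on simulated data. The pattern distance used log2 CPM with a prior count of 2. Named genes were the members, the 3 genes nearest to each in pattern and, from each list, any called gene, the gene with the smallest p and the most abundant gene per length; other genes were named with their values known, and 1 gene that the rule names is not reported here. The members and the lists were chosen with earlier results of these data known.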

Additional observations from a re-analysis of the deposited data

How the results depend on the processing

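With 2 libraries against 3, the values rest on few samples. Over 13 alternatives per member (other scalings, filters and tests, the replicate block, and each library left out), the sign of the log2 fold change was the same 13 times for each of Muc1, Muc4, Muc16 and Muc20. Leaving out 1 library at a time gave log2 fold changes of 0.43 to 2.29 for Muc1, 0.20 to 5.23 for Muc4, -1.98 to -1.24 for Muc16 and 0.70 to 3.89 for Muc20, in each case farthest from 0 without young-SP replicate 1, where 2.29, 5.23, -1.98 and 3.89 passed the call. The number of members called went from 0 to between 0 and 4, the number at an unadjusted p under 0.05 from 1 to between 0 and 4 (0 without either aged-SP library), and the median over the 4 tested members from 0.87 to between 0.33 and 3.09 (3.09 without young-SP replicate 1). The DESeq2 Wald test called 1 member, Muc16 at -1.67, and gave no p for Muc4. In the lists it called 1 of 7 other mucins, 3 of 34 O-glycosylation enzymes, 2 of 21 binding partners and 2 of 20 general epithelial markers. It called 3.60% of all genes, and edgeR called 0 genes of these lists. Without young-SP replicate 1 edgeR called 1, 3, 0 and 4 genes of these lists, beside 3.45% of all genes. That fit also called 6 of 12 luminal markers, 5 of 11 estrogen-responsive genes, 4 of 14 progesterone targets and 3 of 11 gland markers. Without any other library edgeR called 0 genes of those first 4 lists. The cause of these changes was not tested.

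With the replicate number as a block, the log2 fold changes were 0.75 for Muc1, 1.78 for Muc4, -1.52 for Muc16 and 1.66 for Muc20, with adjusted p of 0.469, 0.580, 0.302 and 0.497, and 2 genes were called in all. The block changed no call of a member. The groups share only the numbers 1 and 4, whose libraries had correlations of deviations of 0.152 and 0.136, and the labels do not say what a number marks, so the pairing is not established. At this depth Muc15 and the lowest values of Muc20 are limited by counting error.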
